A study of Mus musculus with 49 samples.

Results

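The 35 genes described here act in mitosis, from the kinases that start it to the motors, kinetochore proteins and ring proteins that carry out the division. Members were matched by gene symbol to the probe sets of the array's annotation that carry a single symbol, and all 35 of 35 were found, on 79 probe sets. Where a gene had several, the brightest one on average across the table represented it. The data are log2 expression values of livers of male C57BL6/N mice, measured on Affymetrix Mouse Genome 430 2.0 arrays. There were 9 dosed groups, given acetaminophen (APAP, paracetamol) once at 300 mg/kg into the peritoneum in phosphate-buffered saline and sampled at 1 h, 6 h or 12 h, or at 1 d, 2 d, 4 d, 6 d, 8 d or 16 d thereafter, and a control group labelled as having no treatment. The dosed mice had been starved overnight and were fed freely afterwards, while feeding and vehicle of the controls are not given in the sources used here. There were 5 arrays a group, and 4 at 6 h. Replicate numbers are given, but not whether each stands for its own animal, so the p-values below reflect array-to-array spread that may be partly technical.

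All probe sets had values at 1 h and 12 h and at 1 d, 2 d and 16 d (25 arrays), and there the 35 members stood among 18194 genes, with 1 h as the reference for want of control values. All 49 arrays shared 8137 probe sets, which covered 5976 genes and 11 of the members, and there control was the reference. All comparisons with 1 h share its 5 arrays, and all those with control share the control arrays. Array means over the shared probe sets lay between 6.03 and 6.33. Within arrays the SD of log2 values ran from 2.40 to 2.48 on 46 of them, and from 2.25 to 2.26 on the other 3, namely replicate 3 of control, replicate 3 of 1 h and replicate 4 of 16 d. The tissue label was met by the liver markers: Alb, serum albumin, lay at 14.25 to 14.34 on the 2 d arrays and at 14.16 to 14.24 on the 1 h arrays. A dosed liver is bulk tissue, so a change in the number of cells of a type and a change in RNA per cell cannot be told apart in any value below.

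Acetaminophen is bioactivated by cytochrome P450 enzymes of the hepatocytes around the central vein, which die when their glutathione is used up, and the surviving, normally quiescent hepatocytes re-enter the cell cycle to replace them. Macrophages, stellate cells and endothelial cells of the injured liver can divide as well. In any dividing cell, cyclin-dependent kinase 1, Aurora and Polo-like kinases drive entry into mitosis, kinetochores attach chromosomes to the spindle, the spindle checkpoint delays separation until all are attached, and the anaphase-promoting complex with Cdc20 then marks cyclin B and securin for destruction. Most of these genes are transcribed late in the cycle: in quiescent cells the DREAM complex holds them off, and in dividing cells the MuvB core joins B-Myb and then Foxm1 to switch them on. MuvB contacts a cell cycle homology region near the start of transcription, whose core reads TTTGAA or TTCGAA, often downstream of CCAAT boxes, which bind NF-Y.

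These 2 motifs were therefore searched, on both strands, in RefSeq promoter windows of build GRCm38.p6 that run from 250 bases before to 50 bases after the annotated start. A window was found for 31 of the 35 members. CCAAT stood in 23 of the 31 windows (74.2%), against 37.4% of all 32851 windows of the table, and TTTGAA or TTCGAA in 25 (80.6%), against 19.2%. Both stood in 22 (71.0%), against 7.52%. TTTGAA or TTCGAA within 50 bases of the start, a distance chosen after the positions were seen, was found in 23 members (74.2%) and in 5.31% of all windows. Members count with 1 window a gene, while all windows can hold several a gene. With 1 window for each of 14453 genes tested on the 25 arrays, the shares were 38.2%, 15.0%, 6.13% and 3.80% in the same order. Of 30 DNA replication genes with a window, 66.7% held CCAAT, but 20.0% held TTTGAA or TTCGAA and 6.67% held it within 50 bases of the start. The windows of Birc5, Melk, Mad2l1, Nuf2 and Nusap1 held neither motif. The 5 full windows below are shown so that the arrangement can be read. The first belongs to the member with the largest measured difference at 2 d, which has no match. The others belong to members with rises nearly as large, picked among those whose windows hold both motifs. They thus do not show how common the motifs are. Ect2, with both motifs and a difference of 3.04, is not printed. Capitals mark the matches, CCAAT also appears as ATTGG and TTTGAA as TTCAAA on the other strand, TTCGAA reads the same on both, matches can overlap, and the annotated start is base 251 of each window.
Birc5 (chr11:117848987-117849286, plus strand): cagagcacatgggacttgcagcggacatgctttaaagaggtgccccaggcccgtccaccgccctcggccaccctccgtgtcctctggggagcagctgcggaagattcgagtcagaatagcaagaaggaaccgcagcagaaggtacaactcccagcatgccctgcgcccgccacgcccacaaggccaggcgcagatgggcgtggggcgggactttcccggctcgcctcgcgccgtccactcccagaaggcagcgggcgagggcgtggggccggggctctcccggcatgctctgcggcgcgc
Mki67 (chr7:135716330-135716629, minus strand): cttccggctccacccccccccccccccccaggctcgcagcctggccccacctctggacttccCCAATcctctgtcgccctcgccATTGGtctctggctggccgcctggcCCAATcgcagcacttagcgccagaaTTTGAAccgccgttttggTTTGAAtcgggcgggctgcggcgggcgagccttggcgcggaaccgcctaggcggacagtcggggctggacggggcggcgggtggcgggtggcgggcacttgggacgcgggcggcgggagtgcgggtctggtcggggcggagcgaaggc
Cdca8 (chr4:124936868-124937167, minus strand): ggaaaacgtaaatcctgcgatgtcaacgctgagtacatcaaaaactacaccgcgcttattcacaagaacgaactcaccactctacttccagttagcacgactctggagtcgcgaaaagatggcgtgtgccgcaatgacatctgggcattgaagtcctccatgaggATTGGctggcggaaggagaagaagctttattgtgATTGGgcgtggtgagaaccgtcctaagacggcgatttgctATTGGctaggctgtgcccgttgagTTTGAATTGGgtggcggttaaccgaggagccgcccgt
Ube2c (chr2:164769679-164769978, plus strand): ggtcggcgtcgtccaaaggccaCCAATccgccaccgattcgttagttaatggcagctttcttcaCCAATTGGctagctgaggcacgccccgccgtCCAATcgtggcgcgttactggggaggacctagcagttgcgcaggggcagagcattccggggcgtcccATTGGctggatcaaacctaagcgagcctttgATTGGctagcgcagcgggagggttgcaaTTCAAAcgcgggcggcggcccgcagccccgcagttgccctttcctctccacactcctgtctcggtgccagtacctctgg
Top2a (chr11:99024140-99024439, minus strand): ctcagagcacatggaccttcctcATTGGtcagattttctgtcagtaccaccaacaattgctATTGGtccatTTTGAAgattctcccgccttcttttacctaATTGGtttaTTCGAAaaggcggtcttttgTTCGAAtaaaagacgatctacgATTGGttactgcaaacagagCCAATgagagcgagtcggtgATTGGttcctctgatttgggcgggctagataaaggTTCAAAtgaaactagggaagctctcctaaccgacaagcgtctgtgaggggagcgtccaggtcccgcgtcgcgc
Among these 5 windows, that of Mki67 differed from the other 3 with matches in that both of its TTTGAA matches lie more than 50 bases before the start. The next stretches of 24 bases come from 8 members, some of which share a role. They hold the match nearest to the start, in capitals and read on the strand of the match. They are shown so that the letters on either side can be compared.
Plk1 (chr7:122159453-122159476, plus strand): cccagcgccgcgTTTGAAttcggg
Aurka (chr2:172370527-172370550, minus strand): aaaaggagaaccTTTGAAttgtaa
Ttk (chr9:83834690-83834713, minus strand): tccggaaacacgTTTGAAatttcc
Cenpa (chr5:30666890-30666913, plus strand): ggcgggtgatttTTTGAActgctg
Cenpf (chr1:189688073-189688096, minus strand): ggcggcgggcagTTTGAAtcgctc
Kif23 (chr9:61946786-61946809, minus strand): ctgattggcctgTTTGAAatgcgc
Prc1 (chr7:80294434-80294457, plus strand): cctctggctcggTTTGAAttccgc
Racgap1 (chr15:99651640-99651663, minus strand): ctggtgcgtgatTTTGAAccggat
A match is a run of letters and not a measured binding site.

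**Figure D1:**
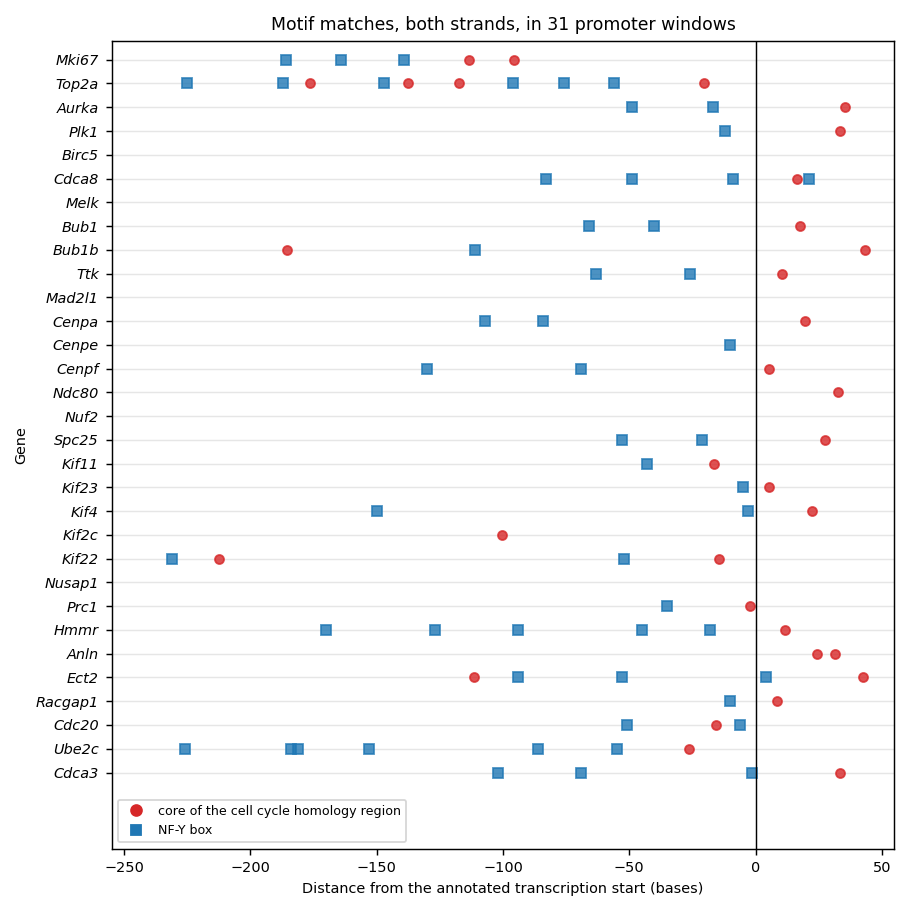
Positions of CCAAT matches (blue squares, NF-Y box) and of TTTGAA or TTCGAA matches (red circles, core of the cell cycle homology region) in the promoter windows of 31 members, with the distance from the annotated start in bases on the x axis and 1 row a gene. Red circles gather within 50 bases of the start in 23 genes, mostly to the right of the blue squares, and 5 rows are empty.

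At 2 d nearly the whole set was higher than at 1 h. The set was chosen with earlier results of these data known, so the counts below describe it and are no independent test. By limma's test with Benjamini-Hochberg adjustment over all genes, called below an adjusted p of 0.05, 30 of 35 members were higher and 0 lower, where 14.8% of all genes were higher and 13.3% were lower. The median log2 difference of the members was 2.06, against −0.08 for all genes tested. Of the members, 27 were called and at least 2-fold higher, against 4.9% of all genes, and in 28 every 2 d array lay above every 1 h array, against 12% of all genes. The highest group mean of the 5 times fell at 2 d in 32 of 35 members. Centring each array on ribosomal protein genes gave a median of −0.49 for all genes and 1.65 for the members, with 29 higher, Kif4 being lost, and 3 lower, the brightest probe sets of Foxm1, Bub1b and Tpx2, against 6.75% of all genes higher and 64.9% lower. Levels before the rise were dim: at 1 h 16 of the 35 lay under 4.35, the bound of the dimmest 25% of genes, and at 2 d 0 lay under the bound of 4.26. Array values are commonly compressed at such levels, so differences from them may be too small.

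**Figure D2:**
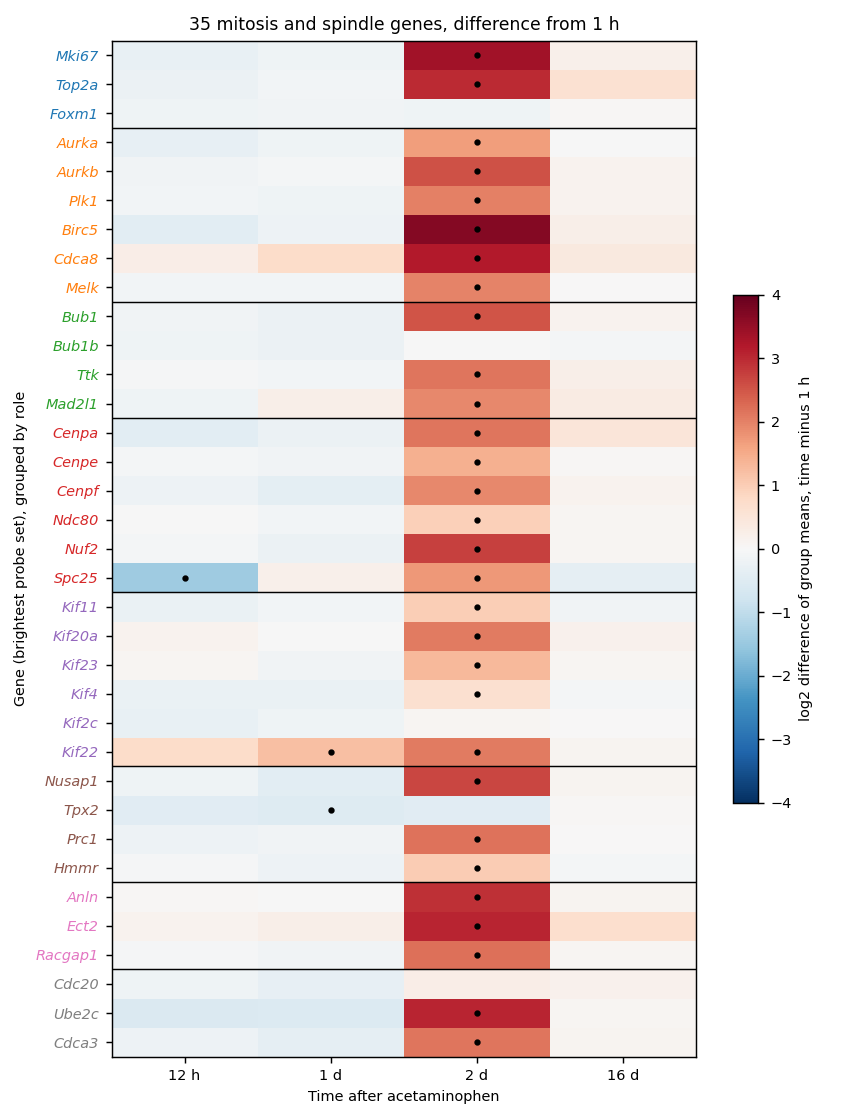
Log2 difference of each of the 35 members from 1 h (colour, red higher and blue lower, scale from −4 to 4) at 12 h, 1 d, 2 d and 16 d on the 25 complete arrays, with genes in rows grouped by role and a dot where limma's adjusted p is under 0.05. Dots fill the 2 d column in 30 rows, while the other 3 columns hold 3 dots in all.

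Among the genes of DNA and chromatin, Mki67 and Top2a rose and Foxm1 did not pass the test. Mki67 encodes Ki-67, the coat of mitotic chromosomes by which dividing cells are counted in tissue sections. Its log2 levels were 8.42, 6.40, 8.06, 8.22 and 7.40 on the 2 d arrays, against 4.29, 4.33, 4.07, 4.34 and 4.72 on the 1 h arrays. The groups did not overlap, and the difference was 3.35 ± 0.26 (SE), with an adjusted p of 1.82e-09 in limma. Top2a, the topoisomerase that untangles sister DNA, had 7.65, 6.06, 7.02, 8.01 and 7.60 at 2 d and 3.78, 4.12, 4.11, 4.53 and 4.86 at 1 h, a difference of 2.99 ± 0.27. Again every 2 d array was above every 1 h array. Foxm1, the forkhead factor that activates late cell cycle genes, averaged 5.74 ± 0.20 at 2 d and 5.91 ± 0.19 at 1 h (SD, n = 5 each) on its brightest probe set, with overlapping arrays.

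All 6 mitotic kinases and passenger complex genes rose, with differences from 1.68 to 3.67. Birc5, survivin, holds the passenger complex at the centromere and had the largest measured difference of all members. It lay at 8.33, 5.49, 8.07, 8.37 and 7.36 on the 2 d arrays and at 3.63, 3.79, 3.68, 3.75 and 4.42 on the 1 h arrays. The difference of 3.67 ± 0.35 had an adjusted p of 3.99e-08, although 1 of the 2 d arrays reached little more than 1 log2 unit above the highest 1 h array. Cdca8, borealin, its partner, had 7.69, 6.46, 8.01, 8.16 and 7.49 at 2 d, against 3.81, 4.26, 4.89, 4.33 and 4.59 at 1 h, a rise of 3.18 ± 0.28. Aurkb, the kinase of the complex, which corrects faulty attachments, had 6.44, 4.05, 5.48, 6.77 and 6.16 at 2 d and 3.16, 3.21, 3.38, 3.39 and 3.03 at 1 h, a rise of 2.54 ± 0.30. In both genes the groups were apart. Aurka, the centrosome kinase, rose by 1.68 ± 0.26, but its lowest 2 d array, at 5.40, lay just above its highest 1 h array, at 5.36. Plk1, the Polo-like kinase of mitotic entry and exit, had 7.08, 5.06, 6.85, 7.21 and 6.50 at 2 d, against 4.54, 4.33, 4.64, 4.56 and 4.49 at 1 h. It rose by 2.03 ± 0.25, and Melk, a kinase made in dividing cells, by 1.99 ± 0.25.

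Of the spindle checkpoint genes, 3 of 4 rose on their brightest probe set. Bub1, a checkpoint kinase, lay at 5.85, 3.66, 5.00, 6.72 and 5.95 at 2 d, against 2.54, 2.99, 2.78, 3.10 and 3.21 at 1 h, a difference of 2.51 ± 0.32. Ttk, the Mps1 kinase that recruits it, rose by 2.14 ± 0.30, and Mad2l1, which with Bub1b restrains Cdc20, by 1.94 ± 0.23. Each of these 3 had all 2 d arrays above all 1 h arrays, whereas the brightest probe set of Bub1b averaged 4.91 ± 0.08 at 2 d and 4.93 ± 0.09 at 1 h (SD, n = 5 each).

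All 6 centromere and kinetochore genes rose, by 0.96 to 2.74. The subunits of the Ndc80 complex, which grips the microtubule ends, rose by unequal amounts: Nuf2 by 2.74 ± 0.33, Spc25 by 1.73 ± 0.39 and Ndc80 by 0.96 ± 0.13. Nuf2 had 7.07, 4.29, 5.58, 7.24 and 6.17 at 2 d, against 3.19, 3.39, 3.30, 3.31 and 3.46 at 1 h. Ndc80 had 5.17, 4.74, 5.24, 5.44 and 4.89 at 2 d and 4.35, 4.15, 4.16, 4.14 and 3.88 at 1 h. Both were clear of overlap, and Nuf2 varied far more among the 2 d arrays (SD 1.20) than Ndc80 did (SD 0.28). Cenpa, the histone H3 variant that marks centromeres, had 7.60, 5.68, 7.69, 8.06 and 7.07 at 2 d, against 5.05, 5.29, 4.60, 4.87 and 5.56 at 1 h, and its lowest 2 d array lay close to its highest 1 h array. Cenpa rose by 2.15 ± 0.32, Cenpf, a large protein of the outer kinetochore, by 1.92 ± 0.28, and Cenpe, a kinesin that moves chromosomes to the spindle equator, by 1.41 ± 0.22. Arrays of Cenpf overlapped, at 4.34 on the lowest 2 d array and 4.62 on the highest 1 h array.

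Kinesin motors rose in 5 of 6 cases, with differences from 0.63 to 2.08 among the 5. Kif23, a subunit of the centralspindlin complex at the midzone, varied little among arrays, with 6.87, 6.46, 6.82, 7.01 and 6.75 at 2 d, against 5.65, 5.18, 5.79, 5.33 and 5.49 at 1 h. Its difference of 1.29 ± 0.12 had an adjusted p of 3.31e-08. Kif20a, a midzone motor, rose by 2.06 ± 0.24, Kif22, which pushes chromosome arms away from the poles, by 2.08 ± 0.29, and Kif11, which pushes the poles apart, by 0.98 ± 0.17. Kif4, a motor of chromosomes and midzone, rose least of the called members, with 5.86, 5.59, 5.90, 6.01 and 5.55 at 2 d, against 5.10, 4.89, 5.55, 5.03 and 5.17 at 1 h. Its difference was 0.63 ± 0.14 (adjusted p = 0.00156), and its lowest 2 d array was barely above its highest 1 h array. Kif2c, which takes microtubule ends apart at the centromere, averaged 5.87 ± 0.39 at 2 d and 5.79 ± 0.29 at 1 h (SD, n = 5 each) on its brightest probe set.

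Of the proteins that bind spindle microtubules, 3 of 4 rose. Nusap1, which bundles microtubules near chromosomes, had 7.59, 5.87, 7.14, 8.22 and 7.55 at 2 d, against 4.59, 4.51, 4.59, 4.64 and 4.71 at 1 h, where its SD was only 0.07. Its rise was 2.67 ± 0.25. Prc1, which cross-links the midzone, rose by 2.16 ± 0.26 and Hmmr, a spindle-pole protein and hyaluronan receptor, by 1.02 ± 0.15. The brightest probe set of Tpx2, the activator of Aurora A, had 4.53, 3.96, 4.15, 4.73 and 4.21 at 2 d, against 4.39, 5.05, 5.26, 4.67 and 4.54 at 1 h, and its difference of −0.47 ± 0.18 did not pass the test (adjusted p = 0.0556), but it did when arrays were centred on the median of all genes (−0.58, adjusted p = 0.0101).

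The 3 cytokinesis genes all rose, by 2.20 to 3.04. Ect2, the exchange factor that sets up the contractile ring at the cell equator, had 6.46, 4.11, 6.09, 7.12 and 5.83 at 2 d, against 2.91, 2.59, 3.01, 2.93 and 2.99 at 1 h. That is a difference of 3.04 ± 0.31. Anln, anillin, the scaffold of the contractile ring, had 7.40, 5.74, 7.37, 8.14 and 7.26 at 2 d, against 4.21, 4.21, 4.14, 4.42 and 4.38 at 1 h, a rise of 2.91 ± 0.26. Racgap1, the partner of Kif23 in centralspindlin, had 6.73, 5.22, 6.53, 7.16 and 6.74 at 2 d, against 3.96, 4.10, 4.68, 4.20 and 4.42 at 1 h, a rise of 2.20 ± 0.23. None of the 3 had a 2 d array inside its 1 h range.

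Of the genes of ubiquitination and mitotic exit, Ube2c and Cdca3 rose. Ube2c, the enzyme that hands ubiquitin to the anaphase-promoting complex, had 8.47, 6.49, 8.76, 8.98 and 7.71 at 2 d, against 5.24, 4.68, 5.41, 4.36 and 5.50 at 1 h, a difference of 3.04 ± 0.36. Cdca3, a substrate-recruiting factor of mitotic entry, had 8.09, 5.86, 7.83, 8.01 and 6.61 at 2 d and 5.10, 4.90, 5.15, 4.91 and 5.55 at 1 h, a difference of 2.16 ± 0.29. In both genes the groups stayed apart. Cdc20, the activator of the complex, averaged 6.21 ± 0.34 at 2 d and 5.93 ± 0.06 at 1 h (SD, n = 5 each) on its brightest probe set (adjusted p = 0.0923).

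**Figure D3:**
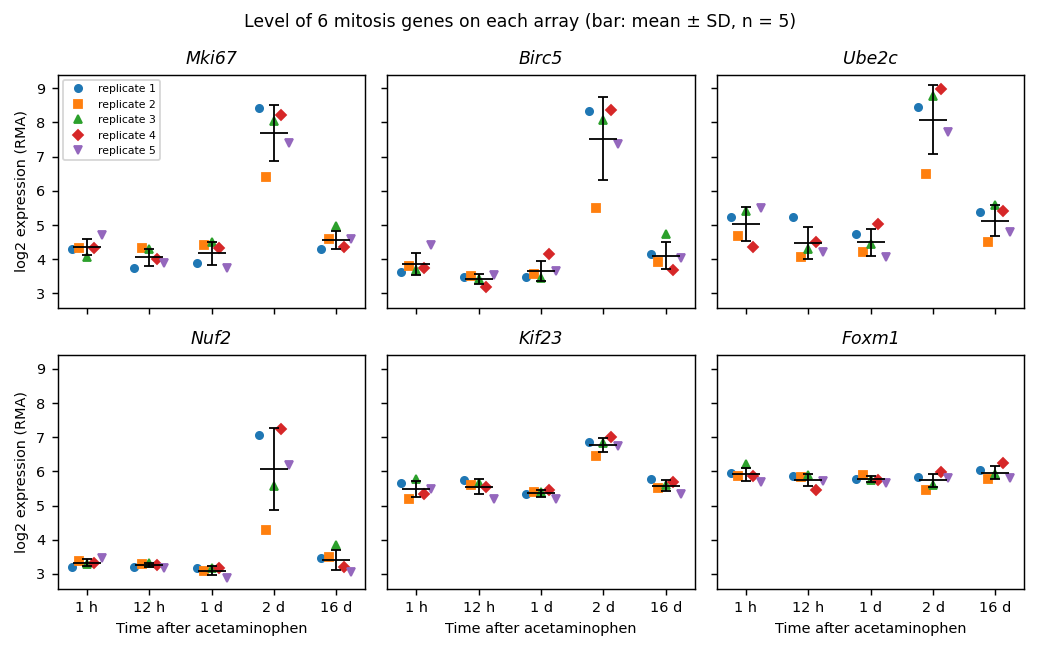
Log2 expression (y axis) of Mki67, Birc5, Ube2c, Nuf2, Kif23 and Foxm1 on each array at 1 h and 12 h and at 1 d, 2 d and 16 d, with 1 symbol and colour for each replicate number, a horizontal line at the mean and whiskers of 1 SD (n = 5). In the first 5 genes the 2 d arrays stand above all others, replicate 2 lies lowest among them, and the Foxm1 arrays of the 5 times overlap.

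Nearly every member had the same lowest and the same highest 2 d array. Replicate 2 had the lowest value in 33 of 35 members and replicate 4 the highest in 31. How often these arrays were lowest or highest among all genes was not counted. Array means over the shared probe sets were 6.30, 6.20, 6.19, 6.30 and 6.33 on 2 d replicates 1 to 5. The median level of the 35 members was 6.73, 5.40, 6.53, 7.12 and 6.17 on 2 d replicates 1 to 5, against 4.39, 4.33, 4.64, 4.53 and 4.71 on the 1 h arrays. Even the 2 d array with the lowest median was thus above every 1 h array. Leaving out any 1 array of either group kept each of the 30 calls at 2 d, and the rise of Birc5 then ranged from 3.46 to 4.18, its highest value being the one without 2 d replicate 2.

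The 5 members that did not pass at 2 d have other probe sets that rose. Cdc20 rose by 2.74 ± 0.31 on 1416664_at and by 2.42 ± 0.31 on 1439377_x_at, against 0.28 ± 0.12 on the brightest, 1439394_x_at. Kif2c rose by 1.84 ± 0.22 on 1437611_x_at and by 1.12 ± 0.17 on 1449060_at, but fell by 0.40 on 1432392_at. These probe sets of 1 gene disagreed in size, and for Kif2c in direction. Tpx2 rose by 1.70 ± 0.21 on 1428104_at and by 1.09 ± 0.15 on 1428105_at, while 1447519_x_at fell by 0.41. Bub1b rose by 1.08 ± 0.14 on 1416961_at and by 0.99 ± 0.18 on 1447363_s_at. Foxm1 rose on 1448834_at by only 0.38 ± 0.13 (adjusted p = 0.0394 over all probe sets), and its other 3 probe sets did not pass. Counted in this way, chosen after the values were seen, 35 of 35 members had at least 1 probe set higher at 2 d, and 3 of them, Cdca3, Kif2c and Tpx2, also had 1 lower. Of all genes, 17% had at least 1 probe set higher and 18.5% at least 1 lower. Over the 79 probe sets 54 were higher and 3 lower, against 12.7% and 11.5% of all probe sets with 1 symbol.

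Other members rest on 1 of several probe sets. Of the 24 members with more than 1 probe set, 6 rose on every one, and the other 11 members were measured by 1 probe set alone. The second probe set of Spc25, 1453815_at, differed by −0.08 ± 0.17, those of Top2a by −0.23 and 0.12, and the second one of Nusap1, 1416310_at, by −0.13 ± 0.09, all without passing the test. With marked probe sets, those that can match more than 1 transcript, left out, Cenpa differed by 0.16 (adjusted p = 0.387) and Hmmr by 0.10 (adjusted p = 0.588), and both calls were lost. Cdca3 rose on 1452040_a_at alone and fell by 0.33 on 1448000_at. Names ending in _a_at, _s_at or _x_at mark probe sets that can match more than 1 transcript, and 34 of the 79 carry such an ending. The rise was found in 27 of these 34 and in 27 of the 45 others. Birc5, Aurkb, Nuf2, Ect2, Kif20a, Prc1 and Racgap1 have marked probe sets only.

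**Figure D4:**
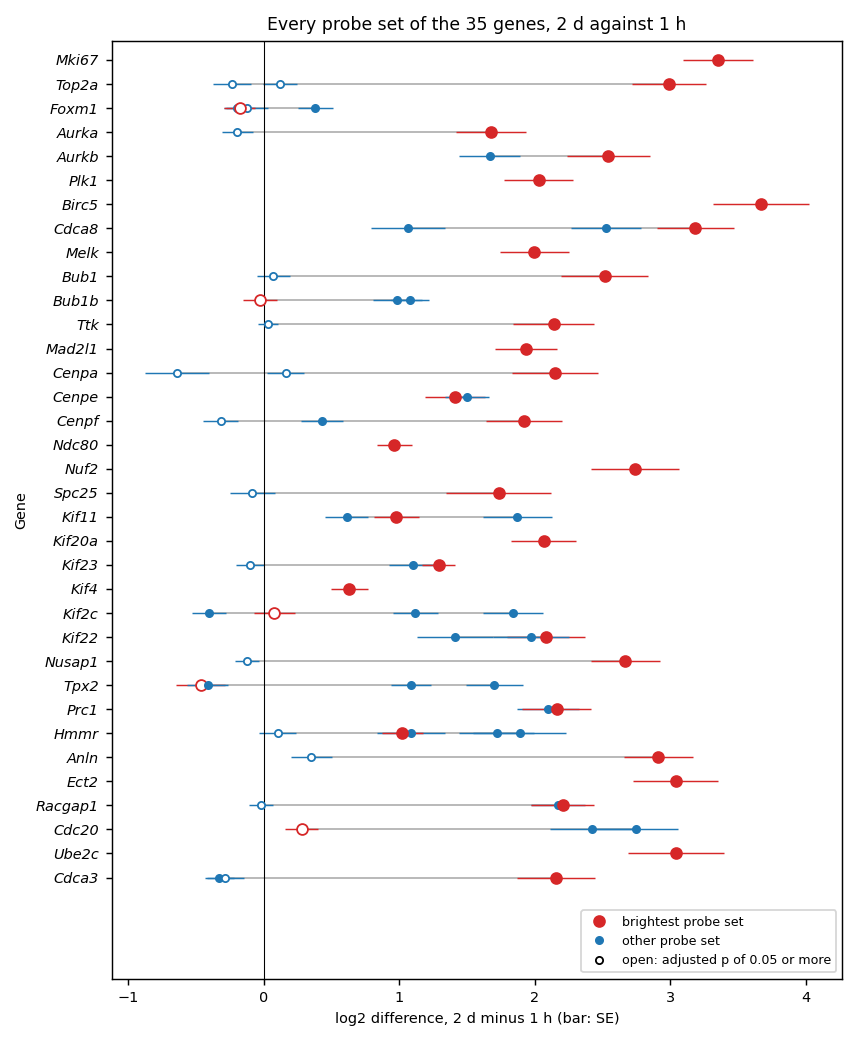
Log2 difference of 2 d from 1 h (x axis, whiskers of 1 SE) for each of the 79 probe sets of the 35 members, 1 row a gene, with the brightest probe set in red, the others in blue, and open symbols where limma's adjusted p is 0.05 or more. Red symbols are open in 5 rows, Foxm1, Bub1b, Kif2c, Tpx2 and Cdc20, and each of these rows holds a filled blue symbol to the right.

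Before 2 d few members moved. At 12 h 0 of 35 were higher and 1 lower than at 1 h, against 8.29% and 10.3% of all genes, and 3 members had an unadjusted p under 0.05 in limma. The one called was Spc25, with 5.58, 4.28, 5.03, 5.10 and 4.93 at 12 h, against 6.32, 6.67, 5.42, 6.63 and 7.03 at 1 h. The groups overlapped, and the difference was −1.43 ± 0.39 (adjusted p = 0.0109), while its second probe set differed by 0.19 ± 0.17. At 1 d 1 member was higher and 1 lower than at 1 h, against 11.6% and 11.7% of all genes. Kif22 was the higher one, with 7.13, 7.18, 7.32, 8.12 and 7.95 at 1 d, against 6.38, 6.67, 5.31, 6.40 and 6.86 at 1 h, a rise of 1.22 ± 0.29 (adjusted p = 0.00327). Its other probe sets differed by 0.13 ± 0.28 and 0.46 ± 0.28 and did not pass. Tpx2 was the lower one, by −0.51 ± 0.18 (adjusted p = 0.0419), a call lost without any 1 of 7 arrays. Cdca8 lay at 5.19, 5.36, 5.15, 5.19 and 4.64 at 1 d, against 3.81, 4.26, 4.89, 4.33 and 4.59 at 1 h, and its difference of 0.73 ± 0.28 did not pass (adjusted p = 0.0662). Mki67 averaged 0.18 lower at 1 d than at 1 h, within its SE of 0.26. Centring on ribosomal protein genes gave a median of −0.50 for all genes at 1 d, and then 19 members were lower and 1 higher than at 1 h, against 67.3% and 4.66% of all genes.

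Most of the rise came between 1 d and 2 d. At 2 d 30 of 35 members were higher than at 1 d and 0 lower, against 6.39% and 2.09% of all genes, with a median difference of 2.19 for the members and −0.01 for all genes. Birc5 differed by 3.86 ± 0.35, Ube2c by 3.58 ± 0.36 and Mki67 by 3.53 ± 0.26. Between 12 h and 1 d 1 member passed, Spc25, higher at 1 d by 1.64 ± 0.39 (adjusted p = 0.0267), against 1.02% of all genes higher and 0.747% lower. That call was lost without any 1 of 12 h replicates 2 and 5 and 1 d replicates 3, 4 and 5.

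By 16 d the levels had fallen again. Compared with 2 d, 30 members were lower and 1 higher at 16 d, against 12.7% and 8.54% of all genes, with a median of −1.92 for the members and 0.06 for all genes. Mki67 lay at 4.31, 4.60, 4.97, 4.37 and 4.59 at 16 d, against 8.42, 6.40, 8.06, 8.22 and 7.40 at 2 d. Every 16 d array was below every 2 d array. The one higher was the brightest probe set of Tpx2, by 0.52 ± 0.18 (adjusted p = 0.0434), a call lost without any 1 of 6 arrays, and the mean of its 4 probe sets differed by −0.51. Compared with 1 h, 0 members passed in either direction at 16 d in limma, where 1.46% of all genes were higher and 1.32% lower, and 2 had an unadjusted p under 0.05. These were Ect2, with 3.72, 3.50, 3.85, 3.42 and 3.22 at 16 d against 2.91, 2.59, 3.01, 2.93 and 2.99 at 1 h, and Top2a, with 4.73, 5.18, 5.16, 4.32 and 5.00 at 16 d against 3.78, 4.12, 4.11, 4.53 and 4.86 at 1 h. Ect2 was 0.66 ± 0.31 higher with no overlap (adjusted p = 0.416), and Top2a 0.60 ± 0.27 higher with overlap (adjusted p = 0.379).

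Against control, 11 members could be followed through all 10 groups: Foxm1, Melk, Bub1b, Mad2l1, Ndc80, Kif22, Nusap1, Prc1, Ect2, Racgap1 and Cdc20. For Foxm1, Bub1b, Kif22, Racgap1 and Cdc20 another probe set stands for the gene here, since the brightest one of the complete arrays was not on the shared part. Up to 1 d none was called by limma: 0 of 11 at 1 h (0.335% of all genes higher and 0.301% lower), 0 at 6 h (3.78% and 1.89%), 0 at 12 h (11.5% and 12.2%) and 0 at 1 d (16.2% and 13.4%). At these times 0, 0, 0 and 1 members had an unadjusted p under 0.05. The one at 1 d was Mad2l1, 0.57 ± 0.24 above control (adjusted p = 0.0635).

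At 2 d 10 of the 11 were higher than control and 0 lower, against 19.9% and 12.7% of all genes, and the exception was Foxm1, which differed by 0.01 ± 0.16. Ect2 averaged 5.92 ± 1.12 at 2 d and 2.97 ± 0.23 in control (SD, n = 5 each), a difference of 2.95 ± 0.34. Cdc20 had 8.19, 6.33, 8.21, 8.83 and 7.63 at 2 d, against 5.04, 4.90, 4.85, 5.29 and 4.69 in control, a difference of 2.88 ± 0.42. Nusap1 was higher by 2.90 ± 0.33, Racgap1 by 2.30 ± 0.23, Mad2l1 by 2.27 ± 0.24, Prc1 by 2.27 ± 0.27 and Melk by 2.20 ± 0.22. The smallest called differences were those of Kif22 (1.28 ± 0.27), Bub1b (1.20 ± 0.17) and Ndc80 (1.05 ± 0.14).

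At 4 d 8 of the 11 were still higher than control and 0 lower, against 9.99% and 6.54% of all genes, and Kif22, Bub1b and Foxm1 did not pass. Ect2 had 6.77, 5.28, 5.02, 4.89 and 5.84 at 4 d, against 2.79, 2.89, 3.07, 2.76 and 3.33 in control, a difference of 2.59 ± 0.34. Cdc20 had 8.79, 7.21, 6.31, 6.83 and 7.56 at 4 d, against 5.04, 4.90, 4.85, 5.29 and 4.69 in control, a difference of 2.38 ± 0.42. Both genes were still clear of the control range on all 4 d arrays. Nusap1 was 2.00 ± 0.33, Mad2l1 1.83 ± 0.24, Racgap1 1.38 ± 0.23 and Prc1 1.30 ± 0.27 above control. Ndc80 was 0.52 ± 0.14 and Melk 0.66 ± 0.22 above control (adjusted p = 0.0066 and 0.0339). The call of Melk was lost without 4 d replicates 1 or 2 or control replicates 1, 2, 4 or 5, and was 0.49 without 4 d replicate 1. That array had the highest value of its group in 8 of 11 members.

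Of the 11, 7 were lower at 4 d than at 2 d and 0 higher, against 13.5% and 5.77% of all genes, but 4 were lower when each array was centred on the median of all genes, which moved that median to 0.16, or on ribosomal protein genes, which moved it to 0.32. Whether the falls differed between members was not tested. Melk fell most, with 5.11, 4.47, 4.20, 4.09 and 4.30 at 4 d, against 6.13, 4.73, 5.89, 7.06 and 6.06 at 2 d, a difference of −1.54 ± 0.22. Prc1 differed by −0.96 ± 0.27, Racgap1 by −0.91 ± 0.23, Bub1b by −0.80 ± 0.17 and Ndc80 by −0.53 ± 0.14. Nusap1 (−0.90 ± 0.33) and Kif22 (−0.81 ± 0.27) also passed, but Nusap1 lost its call without any 1 of 8 arrays, and Kif22 without any 1 of 4. Ect2 (−0.36 ± 0.34), Cdc20 (−0.50 ± 0.42) and Mad2l1 (−0.44 ± 0.24) did not pass, which does not show that their levels were alike. Among DNA replication genes, 19 of 24 were lower at 4 d than at 2 d, against the same 13.5% of all genes.

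The next fall came between 4 d and 6 d. There 6 of the 11 were lower at 6 d and 0 higher, against 1.56% and 0.82% of all genes. These were Ect2 (−2.09 ± 0.34), Cdc20 (−1.74 ± 0.42), Nusap1 (−1.57 ± 0.33), Prc1 (−1.24 ± 0.27), Mad2l1 (−1.19 ± 0.24) and Racgap1 (−1.12 ± 0.23). The call of Cdc20 was lost without 4 d replicate 1, with a difference of −1.38. At 6 d 0 of the 11 differed from control in limma, where 5.89% of all genes were higher and 2.64% lower, and 1 had an unadjusted p under 0.05. On 6 d replicate 4, 9 of the 11 had the highest value of their group: Cdc20 read 5.58, 5.25, 5.00, 7.22 and 4.92 on the 6 d arrays.

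Mad2l1 was called at 8 d, 0.78 ± 0.24 above control (adjusted p = 0.032), where 5.19% of all genes were higher and 2.81% lower. It had 6.45, 6.07, 6.88, 6.08 and 6.05 at 8 d, against 5.26, 5.33, 6.24, 5.40 and 5.39 in control. The call was lost without 8 d replicates 1 or 3 or control replicates 1, 2, 4 or 5. Cdc20 had 7.10, 5.12, 7.51, 5.39 and 5.08 at 8 d, against 5.04, 4.90, 4.85, 5.29 and 4.69 in control, so that replicates 1 and 3 stood above the other 3, and the difference of 1.09 ± 0.42 did not pass (adjusted p = 0.108). Replicate 3 had the highest value in 9 of the 11 members at 8 d. For this array, and for those named at 4 d and 6 d, the share among all genes was not counted. At 16 d 0 of the 11 passed against control in limma, where 3.31% of all genes were higher and 3.35% lower, and 1 had an unadjusted p under 0.05, again Mad2l1, 0.66 ± 0.24 above control.

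**Figure D5:**
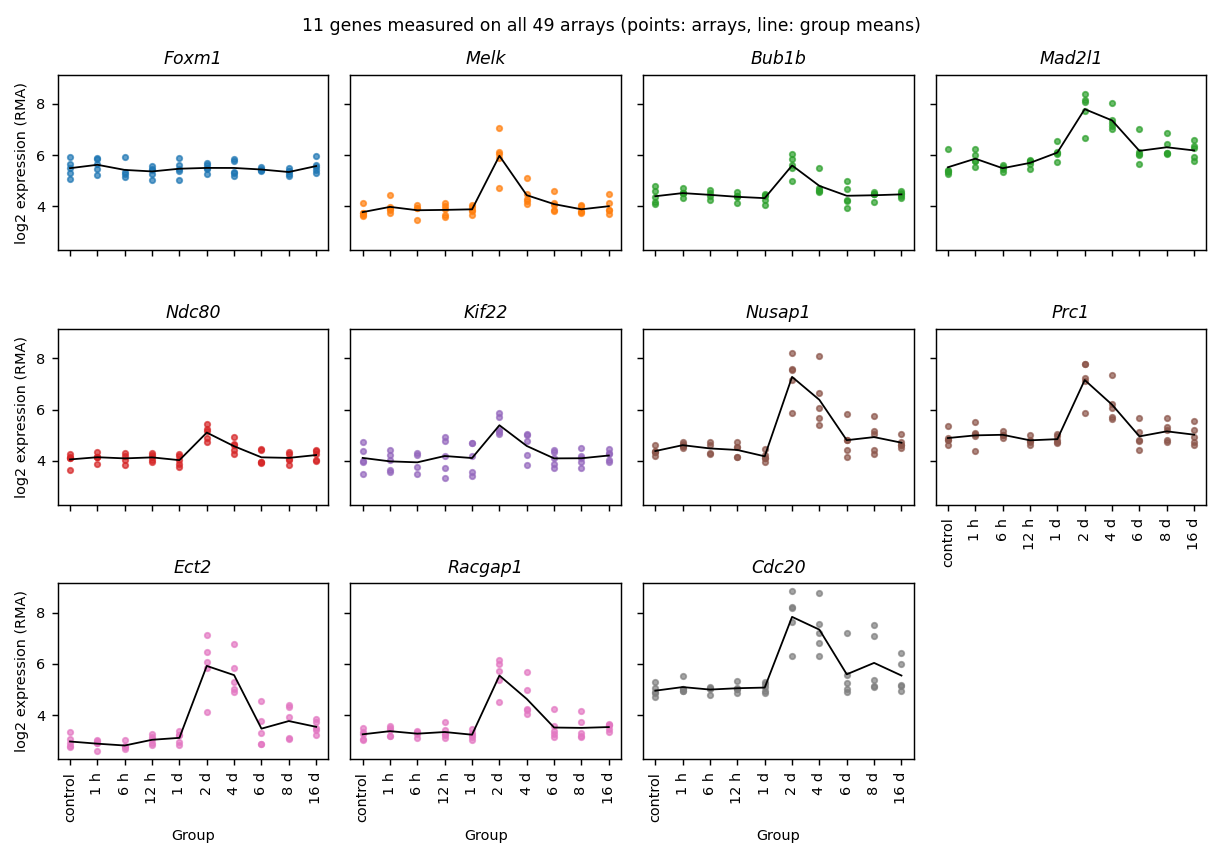
Log2 expression (y axis) of the 11 members measured on all 49 arrays in control and at 9 times after the dose (x axis, in order of time), with 1 point an array (n = 5, at 6 h n = 4) and a line through the group means. Means peak at 2 d in 10 of the 11 panels, 8 of the genes are still called above control at 4 d, and single points stand high at 6 d and 8 d.

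Lists of neighbouring functions were counted at 2 d against 1 h, where 14.8% of all genes were higher and 13.3% lower. The lists are by function but were chosen with earlier results of these data known, so their counts are description and no independent test. Up to 3 called genes of each are named, those with the largest rise among genes whose 2 d arrays all lay above every 1 h array. Of 25 other kinetochore and centromere genes 16 were higher and 3 lower at 2 d than at 1 h, led by Zwilch (2.45 ± 0.28), a part of the complex that loads the checkpoint, Mis18a (1.88 ± 0.22), which helps to load Cenpa, and Cenpi (1.70 ± 0.27), of the inner kinetochore. Of 25 other spindle and cytokinesis genes 10 were higher and 1 lower, led by Cep55 (3.33 ± 0.33), which recruits the final cutting machinery, Stmn1 (1.97 ± 0.27), which destabilises microtubules, and Arhgap11a (1.64 ± 0.23). Of 17 chromosome cohesion and condensation genes 13 rose and 0 fell, with Smc2 (3.51 ± 0.38) and Ncapg2 (2.85 ± 0.26) of the condensins and Cdca5 (2.28 ± 0.29), sororin, at the top. Of 17 genes of mitotic entry 12 rose and 0 fell, with Ccna2 (2.95 ± 0.27), cyclin A, Plk4 (2.77 ± 0.22), the kinase of centriole duplication, and Cdk1 (2.63 ± 0.29) at the top.

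Of 14 genes of the anaphase-promoting complex 6 rose and 0 fell, and the largest rise, that of Anapc4, a scaffold subunit, was 0.95 ± 0.17. Of 17 DREAM and MuvB factors 5 rose and 1 fell, with Rbl1, the p107 pocket protein, 3.28 ± 0.31, Lin9 1.02 ± 0.17 and Tfdp1 0.94 ± 0.13 higher. Of 37 DNA replication genes 31 rose and 2 fell, with Mcm5 (4.77 ± 0.44), Mcm6 (3.97 ± 0.31) and Mcm4 (3.41 ± 0.36) of the replicative helicase at the top. At 1 d 6 of these 37 replication genes were higher than at 1 h and 1 lower, where 11.6% and 11.7% of all genes were, with Mcm6 higher by 2.37 ± 0.31 and Mcm5 by 1.71 ± 0.44.

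Some markers of liver cell types also differed between 2 d and 1 h, and their part in the result was not tested. Of all genes, 14.8% were higher and 13.3% lower there, so 1 call in a list of 3 or 4 says little. Sums of marker levels are on the linear scale, as ranges of the 2 d arrays against the 1 h arrays. Of 8 monocyte and macrophage markers 6 rose and 0 fell, with sums of 3407 to 5006 against 1368 to 1860, and of 5 Kupffer cell markers 3 rose, with 2869 to 3737 against 1609 to 2514. Of 8 stellate cell and myofibroblast markers 7 rose, with sums of 4701 to 7685 against 541 to 698. Of 6 endothelial markers 3 rose, with overlapping sums of 1403 to 1858 against 1062 to 1786, and of 4 neutrophil markers 1 rose, with 304 to 803 against 113 to 228. Of 6 hepatocyte markers 2 fell, with 69643 to 77884 against 77446 to 79025. Alb, Apoa1 and Ttr weigh most in this sum. They averaged 14.30, 14.00 and 13.99 at 2 d, near the highest log2 value of all arrays, 14.41, so the sum may show a loss poorly. No cholangiocyte marker of 4 was called (127 to 149 against 99.2 to 113), while T cell markers fell in 3 of 5 cases (142 to 162 against 181 to 206), B cell markers in 1 of 3 (56.6 to 64.7 against 63.4 to 80.2) and erythroid markers in 2 of 4 (242 to 342 against 602 to 704). On 2 d replicate 2, where the mitosis genes were lowest, the macrophage sum was 4383 and the stellate sum 6721, inside the range of the other 2 d arrays. At 4 d and 6 d, on the shared probe sets, the macrophage sum was highest on the arrays where most of the 11 mitosis genes were highest, at 5167 on 4 d replicate 1 and 2423 on 6 d replicate 4, against 897 to 1599 in control. At 8 d this was not so: the sum was 2017 on replicate 3, where most were highest, and 2088 on replicate 2. For 4 d, 6 d and 8 d the sums of the other cell types are not given here. Whether any sum goes with the mitosis genes from array to array was not tested.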

How the data were processed

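Liver RNA, isolated with TRIzol and labelled from oligo dT primed cDNA per the labels' protocols, was hybridised to Affymetrix Mouse Genome 430 2.0 arrays. The deposited values are log2 expression per probe set, made by the authors with RMA in oligo 1.52.0, per the submitters' processing notes. No source used here says whether all arrays were normalised together. Of the 49 arrays, 25 held 45101 probe sets and 24 held 8137 or 8138, so tables of 25 and 49 arrays were analysed separately. Of 45101 probe sets 34958 had 1 gene symbol, 932 several and 9211 none in the annotation used, and of the 8137 shared ones 7370, 223 and 544. Each gene was taken as its probe set with the highest mean in the table. limma 3.58.1 in R 4.3.3 fitted 1 mean a group to all genes of a table, with empirical Bayes moderation and Benjamini-Hochberg adjustment over all genes (threshold 0.05); probe sets were fitted likewise. Groups come from the labels, with no covariate. RMA values carry no detection call, and precision is limited by 5 arrays a group (4 at 6 h). The script was tested on simulated data. All 35 members are named; of each companion list, up to 3 genes by the rule given beside them. The members and lists were chosen with earlier results of these data known. Tables were made with Python 3.11.15, pandas 2.3.3 and numpy 2.4.6, and promoter windows were matched by symbol, the first listed window of each gene being used. Alternatives changed the array weights, arrays, filter, probe set rule, scaling, normalisation, variance model and replicate block. Deviations of same-numbered arrays from their group means correlated with a median of 0.12 on 25 arrays (lowest −0.57), against 0.0007 for other numbers. On 49 arrays these medians were 0.06 and −0.01. The numbers were not treated as pairs in the main fits, and whether arrays of 1 number share a batch was not tested.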

Additional observations from a re-analysis of the deposited data

Results flagged for a closer look

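Over the members and groups of 4 or 5 arrays, 17 of 255 groups (6.67%) held an array far from the others by Dixon's 95% criterion, which chance alone meets in about 1 group in 20. All values are log2 levels, with the nearest other array of the group after each.

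At 2 d Spc25 read 6.89 on replicate 2, with the next array at 8.26. At 4 d Bub1b read 5.49 on replicate 1 (next 4.72), at 6 d Cdc20 read 7.22 on replicate 4 (next 5.58), and at 8 d Bub1b read 4.16 on replicate 2 (next 4.47). On 16 d replicate 4, an array with a narrow spread, Cenpe read 4.76 (next 4.05), Kif4 5.47 (next 5.00) and Kif22 5.56 (next 6.59). On 1 d replicate 5, Cdca8 read 4.64 (next 5.15) and Nuf2 2.88 (next 3.10), and at 12 h Cenpa read 3.99 on replicate 2 (next 4.74). At 1 h Birc5 read 4.42 and Cdc20 5.53 on replicate 5 (next 3.79 and 5.03), Kif11 3.83 on replicate 4 (next 4.17) and Ect2 2.59 on replicate 2 (next 2.91). Among control arrays, replicate 3, also with a narrow spread, had Melk at 4.13 (next 3.73) and Mad2l1 at 6.24 (next 5.40), and replicate 5 had Ndc80 at 3.62 (next 4.10).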

How the results depend on the processing

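Calls in both directions were counted together, so single members can gain or lose a call while a count changes little. The counts of members called at 2 d against 1 h, 1 d and control kept within 1.5 times of their main values, with the following exceptions. These were 2 d against control and against 1 d on 49 arrays when the dimmest 25% of genes was left out. That left 5 of 6 measured members higher than control and 5 than 1 d. The filter uses the mean over all arrays, 2 d included. Members can thus pass it through their 2 d values, and it is no check on the rise. The cause of the following shifts was not tested unless fewer genes or arrays were measured by construction. With marked probe sets left out, 0 members were called at 12 h and 1 at 1 d against 1 h, 0 at 1 d against 12 h, 5 of 7 at 4 d against control, 4 at 4 d against 2 d and 3 at 6 d against 4 d. Of single genes, Top2a then differed by −0.23, −0.11 and 0.25 (2 d against 1 h and 1 d, 16 d against 2 d), Cdca3 by −0.33, −0.042 and 0.25, and Spc25 by −0.085, −0.10 and 0.080. Cenpa (0.16), Hmmr (0.10), Top2a and Spc25 lost their calls at 2 d against 1 h, and Cdca3 was called lower there (adjusted p = 0.0284 in limma). Kif2c (1.12) and Cdc20 (2.74) gained calls as higher there. Birc5, Aurkb, Nuf2, Ect2, Kif20a, Prc1 and Racgap1 have marked probe sets only and were not measured in this alternative. Spc25 also differed by 0.19 at 12 h against 1 h and by −0.17 at 1 d against 12 h, and Hmmr by −0.0088 at 2 d against 1 d. With the mean of all probe sets, Bub1b differed by 0.68, Tpx2 by 0.48, Kif2c by 0.66 and Cdc20 by 1.81 at 2 d against 1 h. Each of these was then called higher. Tpx2 differed by −0.51 at 16 d against 2 d, and 1 member was called at 1 d against 1 h and 0 at 1 d against 12 h. Centring on ribosomal protein genes gave 2 calls at 12 h and 20 at 1 d against 1 h, 5 at 1 d against 12 h, 3 at 1 d against control and 4 at 4 d against 2 d, where centring on the median of all genes also gave 4. Quantile normalisation gave 2 at 12 h against 1 h and 0 at 8 d against control. Array weights gave 4 at 1 d and 1 at 16 d against 1 h, and 1, 1, 2 and 1 at 1 d, 6 d, 8 d and 16 d against control. Fits of the compared groups alone gave 5 at 1 d and 1 at 16 d against 1 h, 0 at 1 d against 12 h, 0 at 8 d against control and 4 at 4 d against 2 d. Testing each probe set, alone or as a gene with at least 1 called (an alternative chosen after seeing the data), gave 1 at 1 d against 1 h. Without the 3 arrays of narrow spread 1 member was called at 1 d and 1 at 6 d against control. Without the dimmest 25%, 4 were called at 4 d against control and 3 at 4 d against 2 d. The fit with replicate number as a block gave 1 member at 1 d against control and moved no other count by over 1.5 times, though it called Tpx2 lower at 2 d than at 1 h (−0.47, adjusted p = 0.0415); 9 of 25 and 19 of 49 arrays correlated best with their own number. Leaving out 1 array at a time gave 30 to 31 calls at 2 d and 0 at 16 d against 1 h, 1 to 2 at 12 h and at 1 d against 1 h, 0 to 1 at 1 d against 12 h, 29 to 31 at 2 d against 1 d and 30 to 31 at 16 d against 2 d. Against control it gave 0 to 1 at 1 d (1 without 1 d replicate 5 or control replicate 3), 10 at 2 d, 7 to 9 at 4 d, 0 to 1 at 6 d (1 without 6 d replicate 5 or control replicate 3), 0 to 1 at 8 d and 0 to 1 at 16 d (1 without control replicate 3), with 5 to 9 at 4 d against 2 d and 5 to 7 at 6 d against 4 d. Dim probe sets limit what can be said of low levels, since these arrays have no detection call.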
